A study of Mus musculus with 2 samples.

Results

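Basement membranes are thin sheets of matrix that lie under endothelium and around vessels, and 10 genes for their main parts were followed here across the stromal cells of a mouse lymph node: Col4a1, Col4a2, Col18a1, Lama4, Lama5, Lamb1, Lamc1, Nid1, Nid2 and Hspg2. They were listed by symbol and all 10 were found among the 27933 gene symbols of the count matrices. Type IV collagen and laminins each assemble into a network, nidogens bind the laminin and collagen networks to each other, and the proteoglycan perlecan binds both and carries heparan sulfate chains. In lymph nodes such sheets underlie blood vessels and high endothelial venules (HEVs, through which lymphocytes enter), and a layer of them, made by reticular fibroblasts, also wraps the collagen cores of the conduits that carry lymph fluid.

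The cells came from mandibular lymph nodes, into which lymph of the head flows, and were profiled by single-cell RNA sequencing. One group of mice had a subarachnoid haemorrhage (SAH), bleeding around the brain brought about by infusing the animal's own blood, the other a sham operation, and nodes were taken 24 h later. Nodes of 20 mice were pooled in each group, so SAH and sham are 1 library each. In both groups leukocytes were depleted through CD45, and cells labelled for the endothelial protein CD31 or for podoplanin, found on lymphatic endothelium and fibroblasts, were kept by magnetic beads. Strain, age and sex of the mice are not given in the labels. No difference below has a replicate check and no test was made. What is compared is a pair of libraries and not 2 conditions, and whatever else differed between the preparations cannot be told apart from the operation.

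The SAH library held 13766 barcodes with 78497486 UMIs and the sham library 13952 barcodes with 72860197 UMIs, where a UMI marks 1 captured RNA molecule. Barcodes with at least 500 genes and at most 10% mitochondrial UMIs were kept, which left 11454 SAH and 11157 sham cells with median mitochondrial shares of 3.84% and 4.71%. The libraries shared 49 barcode strings among kept cells. Cells were then assigned by gates on raw UMIs. Lymphatic endothelial cells (LECs), which line the node's sinuses, had at least 1 UMI of the lymphatic factor Prox1 and numbered 2562 in the SAH and 2364 in the sham library. Blood endothelial cells (BECs), with Pecam1 and with Ly6c1 or Flt1 but no Prox1, numbered 6480 and 6329. Fibroblastic stroma, with at least 3 UMIs of Dcn and Col3a1 but no Pecam1 or Prox1, numbered 1631 and 1532. A last gate, meant for mural cells, asked for at least 2 UMIs of Myh11 and Ndufa4l2 and no Pecam1, and held 140 and 175 cells. No gate was met by 740 SAH and 858 sham cells.

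The names of the gates were checked against markers that the gates did not use. Levels are given as CPM, the UMIs of a gene per 1000000 UMIs summed over the cells of a class. Lyve1, a hyaluronan receptor of lymphatic endothelium, was at 987 CPM in SAH and 572 CPM in sham LECs, against 41.6 and 31.7 CPM in BECs. The 8 BEC markers summed to 7788 CPM in SAH and 7537 CPM in sham BECs and to 387 and 302 CPM in fibroblastic stroma, but LECs also held 4636 and 4065 CPM of them. The 7 fibroblastic markers summed to 9858 CPM in SAH and 8939 CPM in sham fibroblastic stroma. Within this sum the chemokines Cxcl13 (3729 and 1713 CPM) and Ccl19 (2677 and 2004 CPM) were higher in the SAH library. The other markers were lower, among them Col1a1 (977 and 2015 CPM) and Lum (466 and 870 CPM), though Pdgfra (295 and 297 CPM) was nearly equal. Ccl21a, a chemokine in the lymphatic list, was higher in fibroblastic stroma (15736 CPM in the SAH and 10532 CPM in the sham library) and in BECs than in LECs (1657 and 941 CPM). The library labels call the sample lymphatic endothelium, whereas BECs made up 56.6% of kept SAH and 56.7% of kept sham cells. The mural label held only in part. Of the cells with Myh11 or Ndufa4l2, 92 of 140 in the SAH and 98 of 175 in the sham library also met the fibroblastic gate, and these had 5168 and 3155 CPM of Ccl19, a chemokine of reticular fibroblasts. In the 41 SAH and 74 sham cells that met that gate alone, 8 mural markers summed to 24260 and 22209 CPM, against 5784 and 8422 CPM in the cells that met both. The class is therefore called Myh11/Ndufa4l2 cells below, and values for both portions are given where it is described. The depth of these cells also differed, with a median of 7341.5 UMIs in SAH and 4649 in sham cells, whereas it was 8193 and 6871.5 in LECs, 4754 and 4602 in BECs, and 6336 and 4767.5 in fibroblastic stroma.

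Col4a1 (ENSMUSG00000031502) and Col4a2 (ENSMUSG00000031503) lie head to head on chromosome 8, Col4a1 on the minus strand from 11198423 to 11312826 and Col4a2 on the plus strand from 11312805 to 11449287 in GRCm38 (mm10), per the GENCODE M21 annotation. The annotated genes overlap by 22 bases at their starts. Whether counting used strand is not given in the sources used here, so UMIs from those 22 bases could belong to either gene. The start regions of the pair are shown because they share sequence and because these were the 2 members with the most similar pattern across cells. Each window below holds 250 bases before and 50 bases after the RefSeq start (build GRCm38.p6), 5′ to 3′ on the gene's own strand, and the capitals mark the 78 bases that the windows share, read from opposite strands.
Col4a1, minus strand, chr8:11312777-11313076: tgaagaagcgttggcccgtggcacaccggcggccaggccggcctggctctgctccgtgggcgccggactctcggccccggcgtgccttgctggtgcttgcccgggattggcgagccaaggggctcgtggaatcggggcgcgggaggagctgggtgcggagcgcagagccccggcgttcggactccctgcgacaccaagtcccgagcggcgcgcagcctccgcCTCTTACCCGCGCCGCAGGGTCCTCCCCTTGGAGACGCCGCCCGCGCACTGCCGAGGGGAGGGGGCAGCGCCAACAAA
Col4a2, plus strand, chr8:11312555-11312854: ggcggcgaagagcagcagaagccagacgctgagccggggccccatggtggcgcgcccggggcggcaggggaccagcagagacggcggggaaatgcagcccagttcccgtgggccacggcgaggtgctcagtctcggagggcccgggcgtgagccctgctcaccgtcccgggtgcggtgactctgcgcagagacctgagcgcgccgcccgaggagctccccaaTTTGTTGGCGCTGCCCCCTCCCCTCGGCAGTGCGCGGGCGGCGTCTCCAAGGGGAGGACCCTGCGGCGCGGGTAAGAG
Within the 78 shared bases there was 1 match each to the GC box GGGCGG and to CCCTCCCC, searched on both strands. The whole windows held 1 match to GGGCGG in Col4a1 and 3 in Col4a2, and 1 match each to CCCTCCCC. Each also held 1 match to CCAAT, not within the shared bases, and that of Col4a2 crosses their edge. Among 32851 promoter windows of the same 300-base length, 35.7% held GGGCGG, 10.7% at least 3 of it, 10.8% CCCTCCCC and 37.4% CCAAT. These shares are for whole windows and do not apply to the 78 shared bases alone. Hspg2 (ENSMUSG00000028763) lies on the plus strand of chromosome 4 from 137468769 to 137570630. Its window is shown because Hspg2 was lower in the SAH library in every class. Lamc1 was lower in every class as well, but no window was at hand for it. In the Hspg2 window the capitals mark matches to GGGCGG on either strand.
Hspg2, plus strand, chr4:137468553-137468852: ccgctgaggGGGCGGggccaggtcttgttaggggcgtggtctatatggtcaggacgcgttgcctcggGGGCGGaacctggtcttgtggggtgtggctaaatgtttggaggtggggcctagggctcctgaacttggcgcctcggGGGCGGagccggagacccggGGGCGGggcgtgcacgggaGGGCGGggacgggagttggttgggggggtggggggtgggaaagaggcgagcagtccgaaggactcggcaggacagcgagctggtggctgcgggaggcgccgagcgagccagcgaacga
The window held 5 such matches, a number reached by 2.71% of all windows, and none of CCAAT or CCCTCCCC. These matches describe the letters of the windows only. On the same annotation Lama5 (ENSMUSG00000015647) lies on chromosome 2 from 180176373 to 180225859, Lama4 (ENSMUSG00000019846) on chromosome 10 from 38965515 to 39110188, Lamb1 (ENSMUSG00000002900) on chromosome 12 from 31265234 to 31329644 and Lamc1 (ENSMUSG00000026478) on chromosome 1 from 153218922 to 153332786. Col18a1 (ENSMUSG00000001435) lies on chromosome 10 from 77052178 to 77166548, Nid1 (ENSMUSG00000005397) on chromosome 13 from 13437551 to 13512269 and Nid2 (ENSMUSG00000021806) on chromosome 14 from 19751265 to 19811787.

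Ranges in brackets are exact 95% intervals for counting error only. A fold is the SAH CPM over the sham CPM. CPM values are not divided by transcript length, so they are compared between cells for 1 gene and not between genes.

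Type IV collagen was higher in the SAH library, most of all in fibroblastic stroma. In that class Col4a2 stood at 395 CPM in the SAH and 188 CPM in the sham library, a 2.10-fold difference [1.98, 2.23]. Col4a1 stood at 611 and 394 CPM there (1.55-fold [1.49, 1.62]). The endothelial classes differed by less. In LECs Col4a1 was at 549.8 CPM in SAH and 489.6 CPM in sham cells (1.12-fold [1.09, 1.15]), and Col4a2 at 275 and 213 CPM (1.29-fold [1.24, 1.34]). Col4a1 in LECs turned to 0.984-fold where 3 LEC subsets, described further on, were weighted equally. BECs had the highest levels of both genes in either library, separated from every other class beyond counting error. Col4a1 was at 1199 CPM in SAH and 1101 CPM in sham BECs (1.09-fold [1.07, 1.10]), and Col4a2 at 662 and 535 CPM (1.24-fold [1.21, 1.26]). Below BECs the order of classes was not the same in the libraries. Fibroblastic stroma was second in the SAH and last in the sham library for both genes.

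Each triple helix of this collagen takes its chains from both genes, and the ratio of their UMIs differed between the libraries. LECs had 0.5004 Col4a2 UMIs per Col4a1 UMI [0.485, 0.516] in the SAH and 0.436 [0.420, 0.453] in the sham library. BECs had 0.552 [0.544, 0.561] in the SAH and 0.486 [0.478, 0.494] in the sham library. In fibroblastic stroma the ratio was 0.646 [0.621, 0.671] in SAH and 0.477 [0.448, 0.508] in sham cells, the widest gap of the 4 classes. The intervals of the libraries did not overlap in these 3 classes, whereas in Myh11/Ndufa4l2 cells they did, at 0.611 [0.535, 0.698] and 0.507 [0.434, 0.591]. As a ratio of end-tagged molecules it says nothing of the protein chains.

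**Figure D1:**
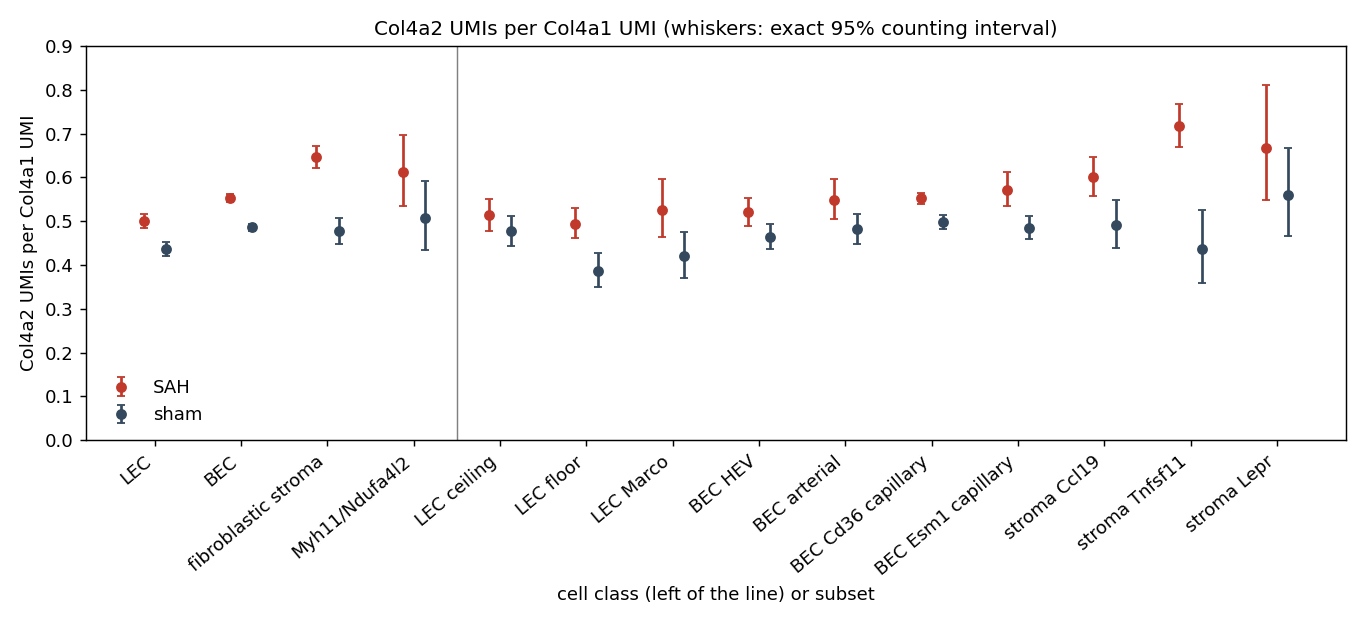
Col4a2 UMIs per Col4a1 UMI (vertical axis) in the SAH (red) and sham (dark) library, for 4 classes left of the line and 10 marker-defined subsets right of it, with exact 95% counting intervals as whiskers. The SAH point lies above the sham point in every column, with the widest gap in the Tnfsf11 subset of stroma at 0.717 against 0.436.

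Col18a1 encodes a collagen that carries heparan sulfate and from whose end the fragment endostatin is cut. Its difference between the libraries had not the same direction in each class. LECs had 55.4 CPM in the SAH and 46.3 CPM in the sham library (1.197-fold [1.10, 1.31]). In BECs the values were 20.8 and 28.6 CPM (0.730-fold [0.664, 0.802]). Fibroblastic stroma had 34.0 CPM in SAH and 39.2 CPM in sham cells, and its interval spanned 1 (0.868-fold [0.744, 1.01]).

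Laminin trimers take 1 alpha, 1 beta and 1 gamma chain, and the alpha chains decide much of what the trimer binds. Lama4, an alpha chain typical of endothelium, was highest in LECs in both libraries, with 237 CPM in the SAH and 206 CPM in the sham library (1.15-fold [1.10, 1.199]). Its levels in BECs (91.1 and 86.6 CPM), fibroblastic stroma (103 and 95.4 CPM) and Myh11/Ndufa4l2 cells (88.4 and 90.2 CPM) were lower. Among these 3 no neighbours were separated in both libraries, though fibroblastic stroma [96.9, 109] lay above BECs [88.0, 94.2] in the SAH library. Lama5, an alpha chain of vessel and epithelial laminins, stood out in fibroblastic stroma. It was at 50.7 CPM in the SAH and 26.0 CPM in the sham library there (1.95-fold [1.66, 2.31]). The share of these cells with Lama5 was not resolved from background, as described further on. In LECs Lama5 was at 49.3 and 39.5 CPM (1.248-fold [1.14, 1.37]) and in BECs at 82.4 and 76.8 CPM (1.07-fold [1.02, 1.13]). Both alpha chains thus had folds above 1 in the 3 larger classes, although the interval of Lama4 in fibroblastic stroma spanned 1 (1.08-fold [0.982, 1.18]).

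The shared beta and gamma chains went the other way. Lamc1, the gamma chain of most vessel laminins, was at 117 CPM in SAH and 134 CPM in sham LECs (0.872-fold [0.825, 0.921]). BECs had 115 CPM in the SAH and 162 CPM in the sham library (0.707-fold [0.680, 0.736]), and fibroblastic stroma 107 and 154 CPM (0.693-fold [0.638, 0.751]). No neighbours in the order of the 4 classes by Lamc1 were separated in both libraries. Lamb1, the beta chain that pairs with it, was lower in SAH BECs, with 73.7 CPM against 103 CPM in sham BECs (0.718-fold [0.683, 0.754]). The difference was small in LECs at 117 and 129 CPM (0.905-fold [0.856, 0.957]), and in fibroblastic stroma, at 94.3 and 96.5 CPM, the interval spanned 1 (0.977-fold [0.889, 1.07]).

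The nidogens were unlike each other. Nid1 was highest in LECs in both libraries, with 290.2 CPM in the SAH and 256 CPM in the sham library (1.135-fold [1.09, 1.18]). In BECs it was at 139 and 137 CPM (1.01-fold [0.976, 1.06]), and in fibroblastic stroma at 172 and 222 CPM (0.776-fold [0.726, 0.829]). Nid2 was lower in the endothelium of the SAH library. BECs had 37.9 CPM in the SAH and 68.7 CPM in the sham library (0.552-fold [0.516, 0.589]), and LECs 24.4 and 41.2 CPM (0.592-fold [0.530, 0.661]). Fibroblastic stroma, at 26.7 CPM in SAH and 32.0 CPM in sham cells, differed by less (0.833-fold [0.701, 0.990]). In LECs there were 0.0841 Nid2 UMIs per Nid1 UMI [0.0769, 0.0917] in the SAH and 0.161 [0.149, 0.174] in the sham library. In BECs this ratio was 0.272 [0.256, 0.288] in the SAH and 0.5003 [0.477, 0.525] in the sham library. Fibroblastic stroma had 0.155 [0.136, 0.175] in SAH and 0.144 [0.126, 0.165] in sham cells. The difference of the ratio between the libraries seen in LECs and BECs was thus not seen in fibroblastic stroma.

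Hspg2, which encodes perlecan, was lower in the SAH library in every class. BECs had 520.1 CPM in the SAH and 794 CPM in the sham library (0.655-fold [0.643, 0.667]). LECs had 249 and 333 CPM (0.748-fold [0.722, 0.776]), and fibroblastic stroma 123 and 185 CPM (0.664-fold [0.616, 0.716]). The order from BECs through LECs to the other 2 classes was the same in both libraries, and fibroblastic stroma and Myh11/Ndufa4l2 cells were not separated.

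**Figure D2:**
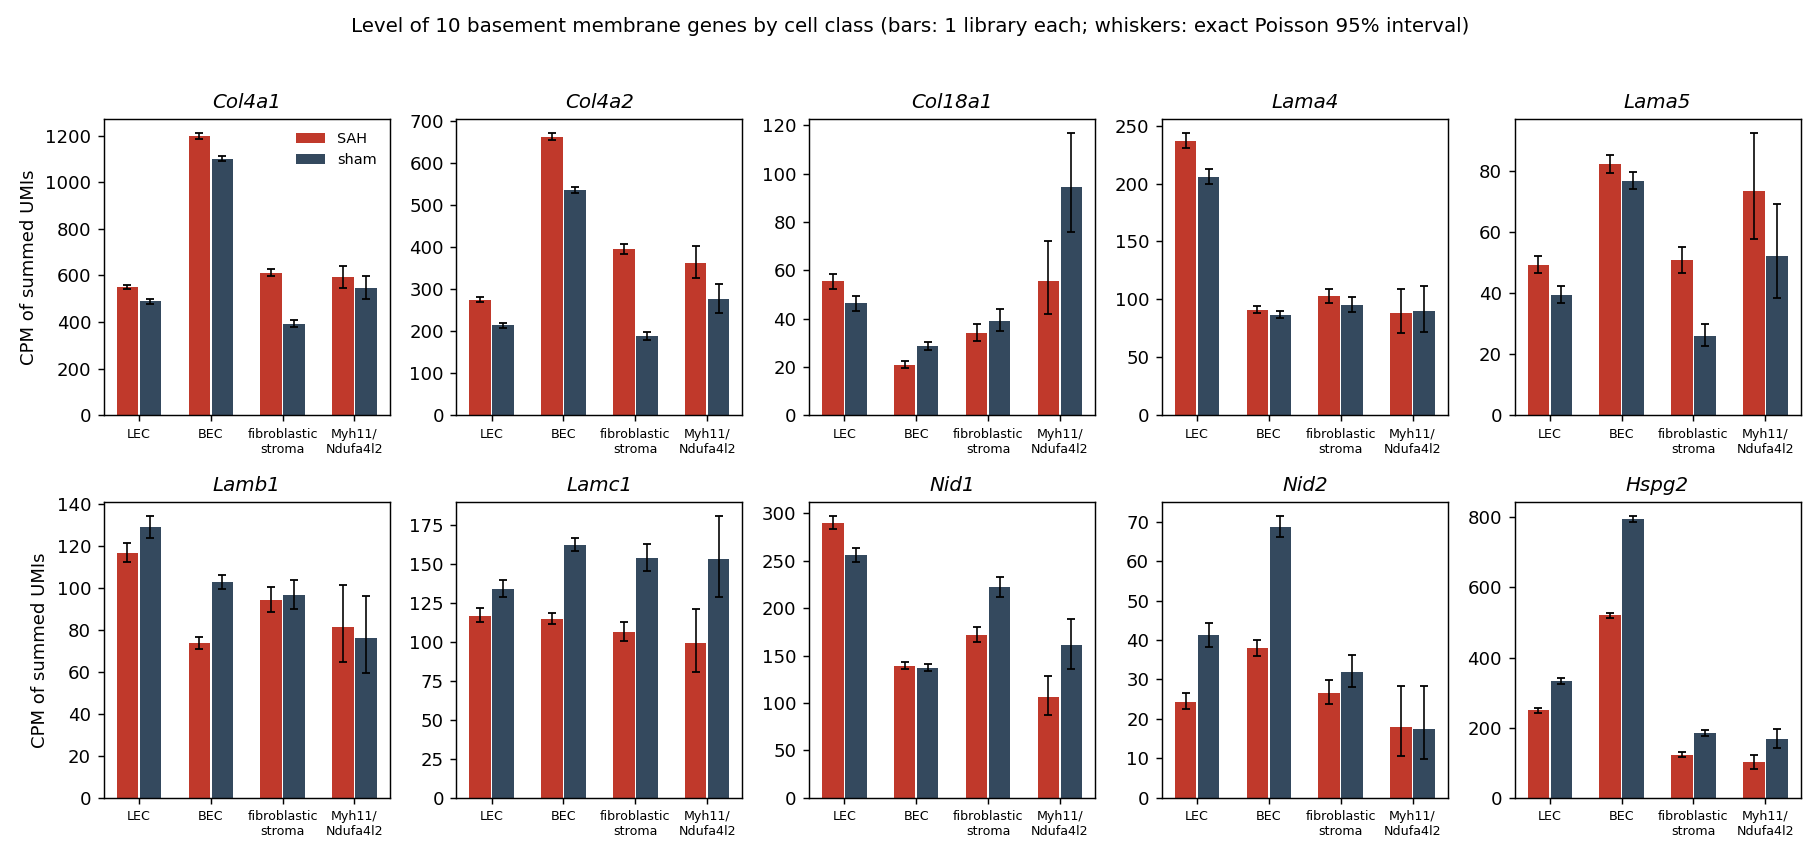
CPM of each gene (vertical axis, own scale per panel) in the SAH (red) and sham (dark) library for the 4 cell classes, with 1 library per bar and exact Poisson 95% intervals as whiskers. Col4a1, Col4a2 and Hspg2 are highest in BECs, and Lama4 and Nid1 in LECs. The SAH bar of Hspg2 is the lower one in every class.

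Counted over the 10 members, fibroblastic stroma had 3 that were at least 1.5-fold higher in the SAH library (Col4a1, Col4a2 and Lama5), where 6.13% of the 9933 genes with at least 100 UMIs in that class, both libraries summed, were. It had 1 at least 1.5-fold lower (Hspg2), where 6.96% of genes were. LECs had 0 that were higher by that size (background 6.98% of 11359 genes) and 1 that was lower, Nid2 (background 3.91%). BECs had 0 higher (background 9.05% of 11937 genes) and 2 lower, Nid2 and Hspg2 (background 3.69%). Every member had at least 100 UMIs in these 3 classes. Lamc1 in fibroblastic stroma, at 0.693-fold, lay just outside the 1.5-fold limit and Hspg2, at 0.664-fold, just inside it, where it stayed under 5 of 11 other ways of processing. Hspg2 in BECs stayed inside under 8 of 10. With a stricter cell filter (1000 genes, 5% mitochondrial UMIs) Nid2 in LECs, at 0.702-fold, was outside it. The median log2 fold of the members was 0.18 in LECs, -0.22 in BECs and -0.12 in fibroblastic stroma, against 0.0030, 0.021 and -0.061 over all genes counted.

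At these depths many genes have counting intervals clear of 1, so that smaller differences are common. The background shares cover all genes with at least 100 UMIs in a class. They are not matched to the members in depth, and intervals narrow as counts grow. In LECs 6 members had an interval above 1 and 4 below it, where 29.2% and 27.4% of genes did. In BECs 4 lay above and 5 below (background 34.3% and 30.3%), and in fibroblastic stroma 3 above and 4 below (background 20% and 28.1%). The summed level of the 10 genes differed little in LECs, at 1964 CPM in the SAH and 1887 CPM in the sham library, and in BECs, at 2942 and 3094 CPM. It was 1716 and 1431 CPM in fibroblastic stroma.

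Myh11/Ndufa4l2 cells had the fewest UMIs. In this class 9 of the 10 members had at least 100 UMIs, and Nid2 had only 18 in the SAH and 16 in the sham library. Type IV collagen was again higher, with Col4a2 at 363 CPM in the SAH and 277 CPM in the sham library (1.31-fold [1.11, 1.54]), and the interval of Col4a1, at 593 and 547 CPM, spanned 1 (1.08-fold [0.962, 1.22]). So did those of Lama5, at 73.5 and 52.2 CPM (1.41-fold [0.967, 2.07]), and Lamb1, at 81.5 and 76.1 CPM (1.07-fold [0.769, 1.495]). Hspg2 was at 101 CPM in the SAH and 168 CPM in the sham library (0.601-fold [0.464, 0.777]), Lamc1 at 99.4 and 153 CPM (0.648-fold [0.497, 0.844]), Nid1 at 106 and 161 CPM (0.661-fold [0.510, 0.853]), and Col18a1 at 55.6 and 94.6 CPM (0.588-fold [0.413, 0.833]). These were the 4 members at least 1.5-fold lower, where 13.7% of 2820 genes were, and 0 were higher by that size, where 8.9% were. An interval above 1 was seen for 1 member (background 16.7%) and below 1 for 4 (background 24.8%). The portion that met the mural gate alone looked different. Its 41 SAH and 74 sham cells had 66 and 54 UMIs of Col4a2 (2.11-fold [1.45, 3.08]) and 134 and 148 UMIs of Col4a1 (1.56-fold [1.23, 1.99]). In the SAH library 10 cells held 56.1% of these Col4a2 and 60.4% of these Col4a1 UMIs, and in the sham library 46.3% and 36.5%. The BEC markers summed to 690 CPM in SAH and 294 CPM in sham cells of this portion, and their part in the folds was not tested. Lamc1 (1.12-fold [0.686, 1.82]), Nid1 (1.15-fold [0.619, 2.09]) and Col18a1 (1.49-fold [0.8997, 2.46]) had folds above 1 in that portion with intervals that spanned 1, while Hspg2 stayed below (0.550-fold [0.286, 1.00]). In the cells that also met the fibroblastic gate Col18a1 was at 29.9 CPM in the SAH and 72.4 CPM in the sham library (0.413-fold [0.238, 0.699]), and Lamc1 and Nid1 were 0.532-fold [0.381, 0.738] and 0.555-fold [0.414, 0.742]. Only the portion that also met the fibroblastic gate had intervals below 1 for these 3 genes. For Lamc1 and Nid1 the intervals of the portions overlapped. A subset of the class gated on pericyte genes such as Rgs5, with 47 SAH and 97 sham cells, was not split by portion. Its folds were 0.195 [0.060, 0.494] for Col18a1 (5 and 40 UMIs), 0.513 [0.316, 0.808] for Lamc1 and 0.648 [0.429, 0.961] for Nid1. Few cells of the whole class carried Col18a1, and 10 of them held 66.1% of its UMIs in the SAH and 41.4% in the sham library. In the portion with the mural gate alone 10 cells held 96.9% and 56.8%.

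**Figure D3:**
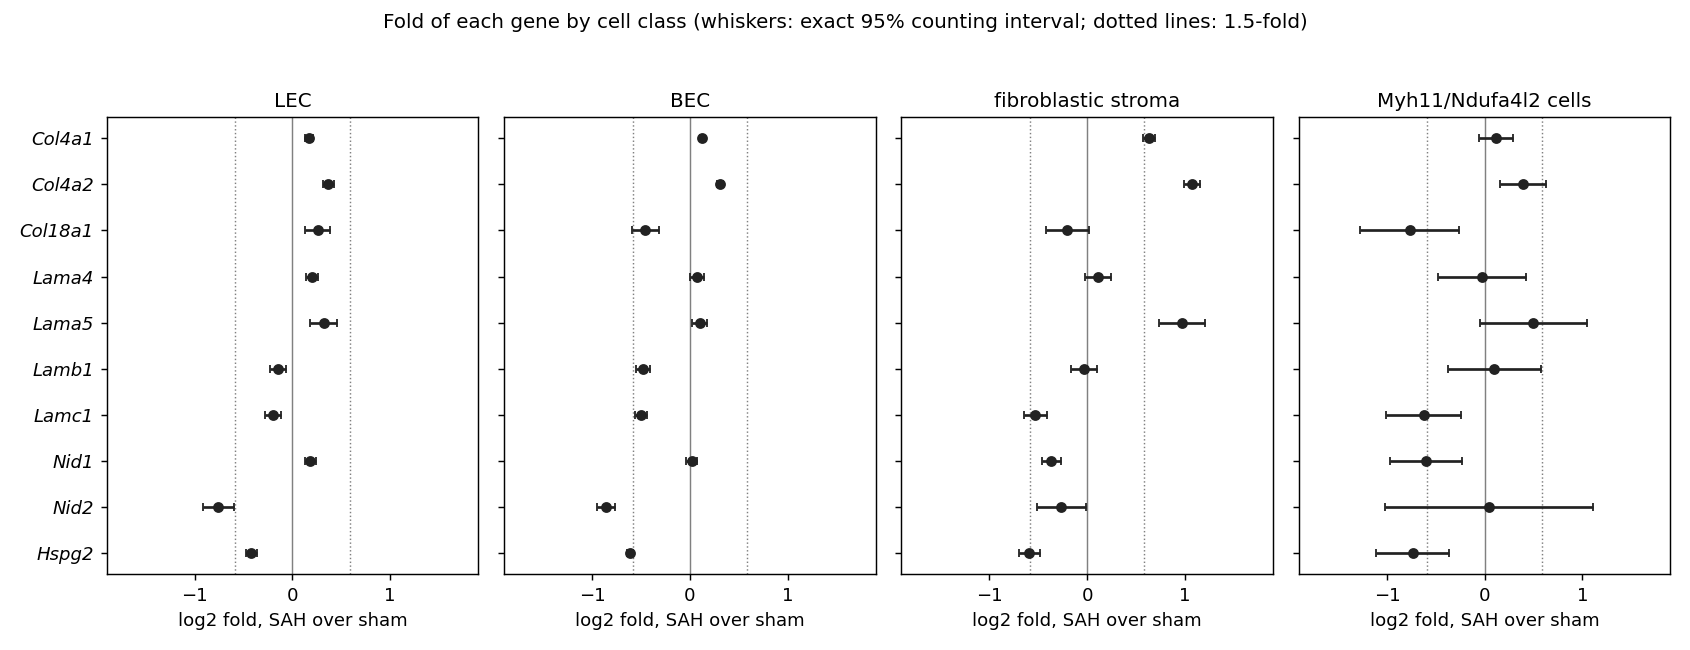
Log2 fold of SAH over sham (horizontal axis) for each gene in the 4 classes, with exact 95% counting intervals as whiskers and dotted lines at 1.5-fold. Col4a2 lies above 0 and Hspg2 below 0 in every panel, and the fibroblastic panel has 3 genes beyond the upper line.

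Shares of cells with at least 1 UMI were read after every cell had been thinned at random to 2000 UMIs, which left out 84 SAH and 107 sham fibroblastic cells, 626 and 552 BECs, and 6 and 30 leukocytes. Free RNA in droplets gives UMIs to cells that do not make a gene, so leukocytes left after the depletion serve as cells that should lack these genes. Their gate asked for no Prox1 or Pecam1 UMI and limited those of Dcn, Col3a1, Myh11 and Ndufa4l2. It can thus leave out leukocytes with more free stromal or endothelial RNA, so their shares may understate the background. Col4a1 had a UMI in 63.9% [61.5, 66.3] of SAH and 48.6% [46.0, 51.3] of sham fibroblastic cells, against 1 of 36 SAH and 3 of 63 sham leukocytes. Col4a2 had one in 47.4% [44.9, 49.97] of SAH and 27.3% [25.0, 29.7] of sham fibroblastic cells, against 4 and 1 of these leukocytes. A larger share of fibroblastic cells in the SAH library thus had a UMI of each chain. Hspg2 had a UMI in 62.0% [60.7, 63.2] of SAH and 74.6% [73.5, 75.7] of sham BECs, against 3 and 2 leukocytes. Nid2 had one in 7.76% [7.08, 8.47] of SAH and 12.0% [11.2, 12.9] of sham BECs. It had one in none of the leukocytes, with exact upper bounds of 9.74% of SAH and 5.69% of sham leukocytes. Its shares in LECs were 5.02% of SAH and 8.09% of sham cells. With so few leukocytes the background of Nid2 in the SAH library is not resolved below its share in either endothelial class, whereas both sham shares lay above the sham bound. Unthinned, Col4a1 had a UMI in 88.8% of SAH and 72.5% of sham fibroblastic cells, and Hspg2 in 82.8% of SAH and 90.1% of sham BECs, against 3 and 3 leukocytes with Col4a1 and 4 and 6 with Hspg2. The leukocytes had median depths of 2850.5 UMIs in the SAH and 2516 UMIs in the sham library. Summed over all leukocytes, no member had more than 8 UMIs in either library.

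A class can hold another mix of subsets in each library, so the members were read again within subsets gated on other markers. Subsets with at least 50 cells in each library numbered 10 of 13. LECs gave ceiling-like cells (Ackr4, Foxc2, Ackr3; 461 SAH and 563 sham cells), floor-like cells (Madcam1, Itga2b, Csf1, Bmp2; 749 and 579 cells) and Marco-type cells (Marco, Clec4g, Stab2, Mrc1; 179 and 194 cells). BECs gave HEV-like cells (Chst4, Fut7, Enpp6; 645 and 620 cells), arterial-like cells (Gja4, Gja5, Bmx, Sema3g, Hey1; 285 and 510 cells), capillary-like cells with Cd36, Aqp7 or Gpihbp1 (2308 and 1361 cells) and capillary-like cells with Esm1, Apln, Col13a1 or Pgf (377 and 680 cells). Fibroblastic stroma gave subsets called Ccl19 (with Il7 and Tnfsf13b; 578 and 450 cells), Tnfsf11 (with Madcam1 and Cxcl13; 365 and 128 cells) and Lepr (with Ptn; 66 and 218 cells) after their leading gate gene. The shares of several subsets differed widely between the libraries. Esm1-type cells, for example, were 5.82% of SAH and 10.7% of sham BECs. The Tnfsf11 subset was 22.4% of SAH and 8.36% of sham fibroblastic stroma. Cxcl13, a gene of its gate, was itself at 3729 CPM in SAH and 1713 CPM in sham fibroblastic stroma. This subset thus need not hold like cells in both libraries, and the part of this in its folds was not tested.

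Laminin alpha chains set the subsets apart in both libraries. In HEV-like cells Lama4 was at 14.1 CPM in the SAH and 12.2 CPM in the sham library, its lowest level among the subsets, while Lama5 was at 99.5 and 96.7 CPM, its highest. HEV-like cells thus had 7.05 Lama5 UMIs per Lama4 UMI [5.66, 8.89] in the SAH and 7.95 [6.29, 10.2] in the sham library. In Cd36-type capillary cells this ratio was 0.657 [0.604, 0.715] and 0.549 [0.490, 0.615], and in arterial-like cells 1.04 [0.808, 1.34] and 1.01 [0.821, 1.23]. LEC subsets also differed in it. Floor-like cells had 0.636 [0.569, 0.711] and 0.665 [0.574, 0.770], whereas ceiling-like cells had 0.0973 [0.0820, 0.115] and 0.0871 [0.0706, 0.106]. Ceiling-like cells had the highest Lama4 of all subsets, with 351 CPM in the SAH and 270 CPM in the sham library (1.30-fold [1.21, 1.40]).

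Other members marked subsets as well. Nid2 was lowest in HEV-like cells, with 5.43 CPM in the SAH and 7.91 CPM in the sham library, and Lamb1 was lowest there too, with 17.4 and 27.7 CPM (0.627-fold [0.491, 0.798]). For Col18a1 arterial-like cells had the highest sham level among the subsets, at 81.5 CPM, and 58.0 CPM in the SAH library. Among LEC subsets Col18a1 was at 98.9 CPM in SAH and 80.1 CPM in sham ceiling-like cells, but at 12.9 and 10.2 CPM in floor-like cells. Hspg2 was likewise lower in floor-like cells, at 128 and 127 CPM, than in ceiling-like cells, at 249 and 358 CPM. Col4a1 was highest in Cd36-type capillary cells, with 1555 CPM in the SAH and 1429 CPM in the sham library. In HEV-like cells Col4a1 was at 466 CPM in the SAH and 506 CPM in the sham library, and Col4a2 at 242 and 235 CPM. The SAH levels lay below those of the whole LEC and fibroblastic classes, so in that library the rank of BECs as a class did not extend to HEV-like cells. The sham levels lay above both classes, which had 489.6 and 394 CPM of Col4a1 and 213 and 188 CPM of Col4a2. For Col4a1 the sham interval of HEV-like cells [489, 524] overlapped that of LECs [480, 500].

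**Figure D4:**
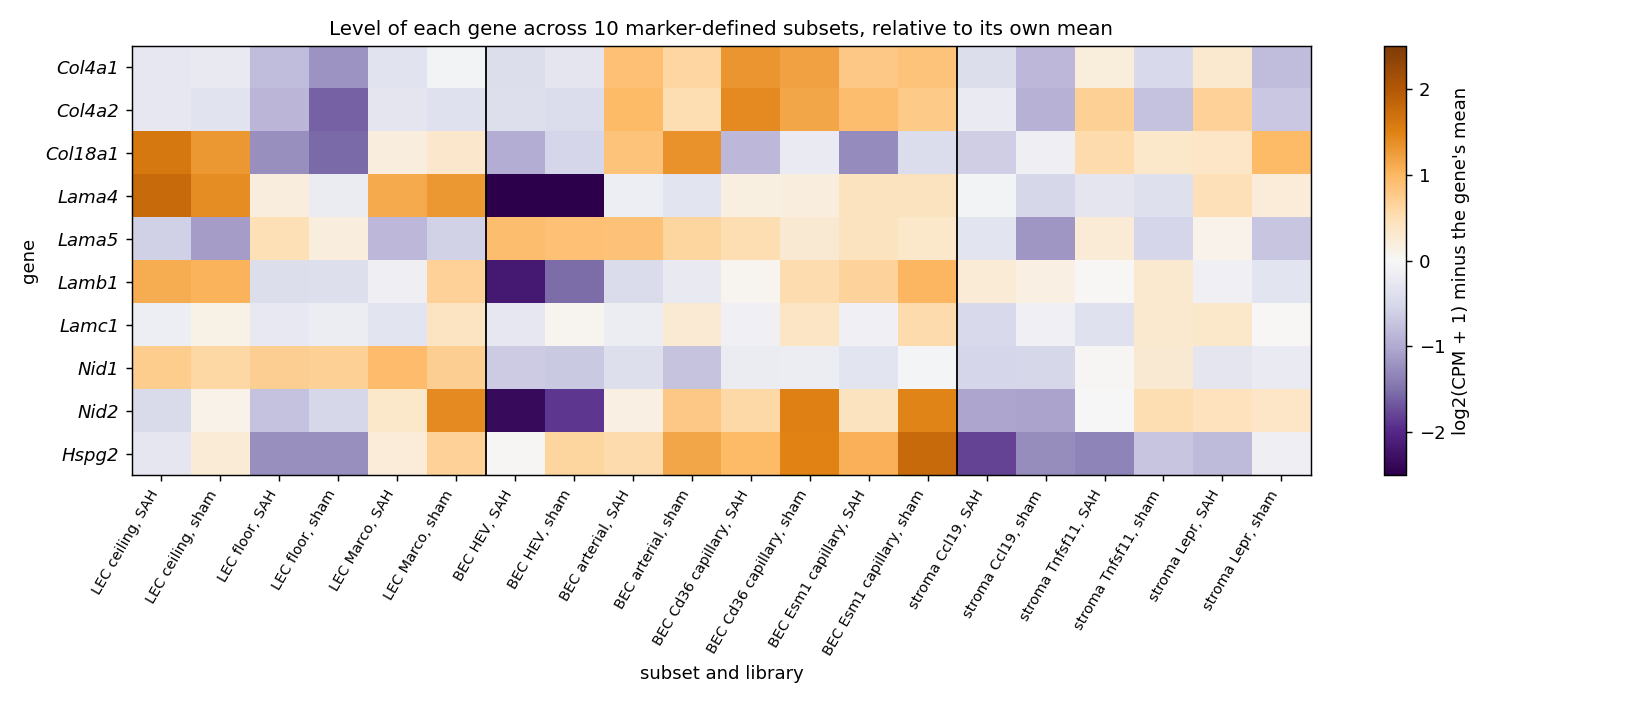
Log2(CPM + 1) of each gene minus its own mean over the 20 columns, which are 10 subsets in the SAH and the sham library. HEV-like cells are dark for Lama4, Lamb1 and Nid2 in both libraries and pale orange for Lama5, and ceiling-like cells are orange for Col18a1 and Lama4. Values past the ends of the colour bar take its end colour.

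Some differences between the libraries were shared by nearly all subsets and some were not. Col4a2 was higher in SAH cells in 10 of 10 subsets, with an interval above 1 in 7, and its fold ran from 1.03 in HEV-like cells to 2.71 [2.30, 3.21] in the Tnfsf11 subset. In that subset it was at 514 CPM in SAH and 190.1 CPM in sham cells. Hspg2 was lower in 9 of 10 subsets, each with its interval below 1. The exception was floor-like LECs (1.01-fold [0.911, 1.12]), and the lowest fold was in Esm1-type capillary cells, with 630.4 CPM in the SAH and 1036 CPM in the sham library (0.608-fold [0.572, 0.647]). Lamc1 was lower in 9 of 10 subsets, with an interval below 1 in 8, the exception being the Lepr subset (1.26-fold [0.902, 1.75]).

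Col4a1 did not follow Col4a2 throughout. It was higher in SAH cells of 6 subsets and lower in 4, and its interval lay below 1 in HEV-like cells (0.921-fold [0.876, 0.968]) and in Marco-type cells (0.831-fold [0.752, 0.918]). In floor-like cells it was at 355 CPM in the SAH and 269 CPM in the sham library (1.32-fold [1.23, 1.41]), while in ceiling-like cells it was at 519 and 528 CPM (0.984-fold [0.929, 1.04]). Of the 3 LEC subsets, floor-like cells alone had Col4a1 higher in the SAH library. Within stroma it was highest in SAH cells of the Lepr subset, with 767 CPM against 353 CPM in sham cells (2.17-fold [1.84, 2.55]). That subset had 66 SAH cells, of which 10 held 41.6% of its Col4a1 UMIs.

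Nid2 was lower in 8 of 10 subsets, with an interval below 1 in 5 endothelial ones. Marco-type cells had 40.5 CPM in the SAH and 86.3 CPM in the sham library (0.469-fold [0.339, 0.643]). Esm1-type capillary cells had 43.0 and 89.96 CPM (0.479-fold [0.376, 0.603]). Lama5 was higher in 9 of 10 subsets, with an interval above 1 in 5. In the Ccl19 subset of stroma it was at 41.5 CPM in SAH and 22.5 CPM in sham cells (1.84-fold [1.38, 2.496]). Col18a1 was lower in all 4 BEC subsets with intervals below 1, from 0.540-fold [0.337, 0.839] in Esm1-type cells to 0.727-fold [0.558, 0.944] in HEV-like cells.

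**Figure D5:**
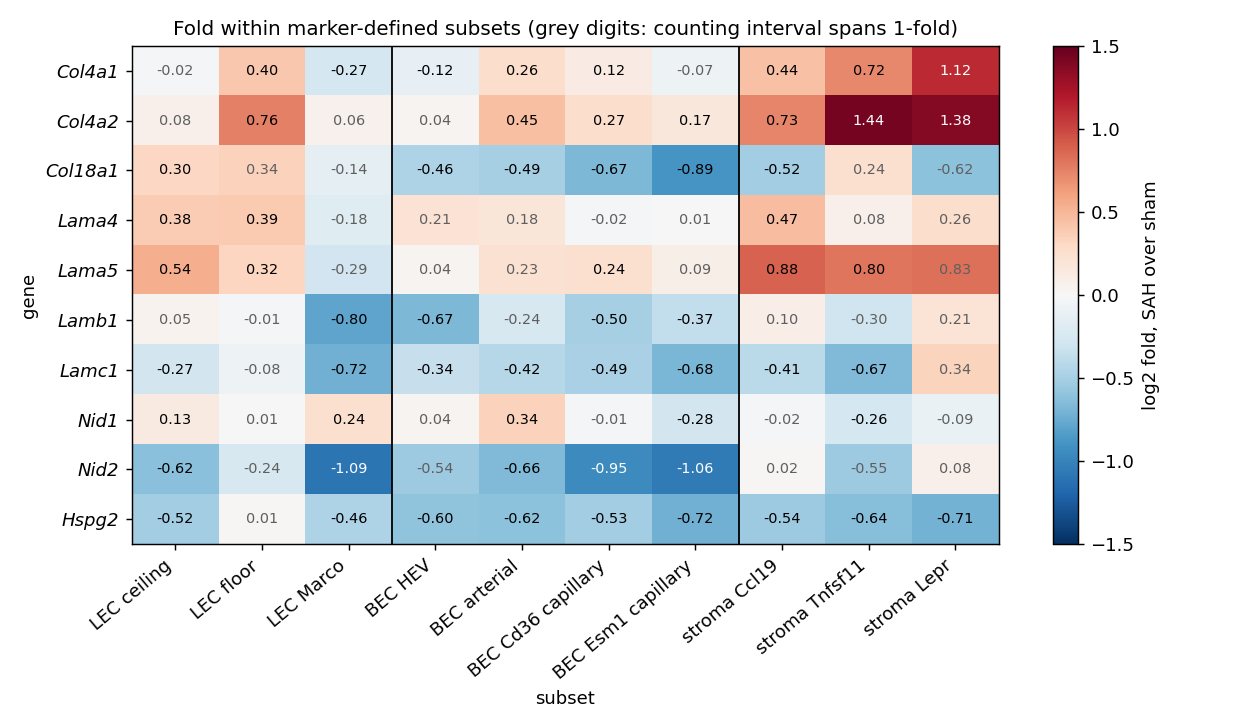
Log2 fold of SAH over sham (colour and digits) for each gene in 10 subsets, with grey digits where the counting interval spans 1. The Col4a2 row is above 0 throughout, the Hspg2 row is below 0 except in floor-like cells at 0.01, and the stromal columns hold the highest Col4a1, Col4a2 and Lama5 values.

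A fibroblastic subset gated on Pi16, Dpp4, Sema3c and Anxa3, genes of adventitial fibroblasts, was too small for a fold, with 24 SAH and 63 sham cells. Its Nid1 level was the highest seen anywhere, at 1391 CPM in the SAH and 1533 CPM in the sham library. These cells were 1.47% of SAH and 4.11% of sham fibroblastic cells, and they held 8.26% and 27.1% of the Nid1 UMIs of the class. Without them Nid1 was 0.948-fold in fibroblastic stroma instead of 0.776-fold.

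Likeness of pattern was measured as Pearson's r of log2(CPM + 1) over the 20 values from 10 subsets in 2 libraries, which share library and depth and are given as a description. Among the members the closest pair was Col4a1 and Col4a2, with r = 0.97, and the next closest Lama4 and Lamb1, with r = 0.85. Lama5 and Lama4 had r = -0.58. Outside the members, and among 12372 genes, Enpp3 and Lipa were closest to Col4a1 (r = 0.93 each), Abcg1 to Hspg2 (r = 0.97), Parp1 to Nid1 (r = 0.93), Abl1 to Nid2 (r = 0.90) and Bcl9l to Col18a1 (r = 0.87). Pxdn, an enzyme that crosslinks type IV collagen, was the second closest gene to the mean of the members (r = 0.88) after Tril (r = 0.89).

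Further genes of basement membranes were counted from 4 lists, with the same 1.5-fold limit and at least 100 UMIs in the class. The shares of all genes past that limit, higher and lower, were 6.98% and 3.91% in LECs, 9.05% and 3.69% in BECs, 6.13% and 6.96% in fibroblastic stroma, and 8.9% and 13.7% in Myh11/Ndufa4l2 cells, and the counts from these lists stand beside them with no test. Of other chains and matrix partners 15 of 23 could be read in LECs, of which 2 were higher and 2 lower in the SAH library, and 15 in BECs, with 2 higher and 1 lower. In fibroblastic stroma 2 of 14 were higher and 7 lower, with a median log2 fold of -0.30. Agrn, a heparan sulfate proteoglycan like perlecan, differed in the other direction from Hspg2. It was at 104 CPM in SAH and 54.2 CPM in sham LECs (1.92-fold [1.78, 2.07]), 73.9 and 43.0 CPM in BECs (1.72-fold [1.62, 1.83]), and 17.6 and 9.58 CPM in fibroblastic stroma (1.83-fold [1.40, 2.43]). Col15a1, the close relative of Col18a1, was at 276 CPM in SAH and 417 CPM in sham BECs (0.663-fold [0.646, 0.680]) and at 16.5 and 35.5 CPM in fibroblastic stroma (0.465-fold [0.384, 0.563]). Lamb2, a beta chain that can stand in for Lamb1, was 1.61-fold [1.48, 1.75] in LECs, at 73.2 and 45.5 CPM. Efemp1, a fibulin of elastic fibres and basement membranes, was at 44.0 CPM in SAH and 120 CPM in sham fibroblastic cells (0.368-fold [0.329, 0.412]).

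The receptor list held integrins, syndecans, dystroglycan and collagen receptors among others. Of 14 read in LECs, 0 passed the limit in either direction, and of 15 in BECs 2 were higher, Itgb4 (1.56-fold [1.46, 1.66]) and Itga3 (1.504-fold [1.37, 1.65]), which are named as the sole receptors past the limit there, after their values were seen. Of 12 in fibroblastic stroma 0 were higher and 2 lower, with a median log2 fold of -0.20. Enzymes of collagen folding and crosslinking had 2 of 19 higher in LECs, 3 higher and 1 lower of 19 in BECs, and 1 higher and 2 lower of 18 in fibroblastic stroma. P4hb, a subunit of the collagen prolyl hydroxylases, was at 259 CPM in SAH and 143 CPM in sham LECs (1.81-fold [1.73, 1.895]).

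Proteases and their inhibitors had 2 of 18 members higher and 2 lower in LECs, 4 of 18 higher in BECs, and 3 higher and 4 lower of 17 in fibroblastic stroma. Adam15, a membrane metalloprotease, was higher in all 4 classes, with 104 CPM in SAH and 49.5 CPM in sham LECs (2.10-fold [1.95, 2.27]). Mmp14, a membrane protease that activates other matrix proteases, was at 121 CPM in SAH and 68.4 CPM in sham fibroblastic cells (1.77-fold [1.60, 1.96]). Mmp2, a gelatinase that cleaves type IV collagen, was at 19.6 CPM in SAH and 8.68 CPM in sham BECs (2.26-fold [1.98, 2.59]). Its level was far higher in fibroblastic stroma, at 160 and 162 CPM (0.985-fold [0.915, 1.06]). Fibroblastic markers in BECs also summed higher in the SAH library, at 1219 against 535 CPM. Whether RNA of fibroblastic cells entered the Mmp2 fold of BECs was not tested. The inhibitor Timp3 was at 145 CPM in SAH and 376 CPM in sham fibroblastic cells (0.387-fold [0.364, 0.412]), and at 481 and 1435 CPM in Myh11/Ndufa4l2 cells (0.335-fold [0.301, 0.372]), whereas Timp1 was 1.89-fold [1.60, 2.23] in fibroblastic cells, at 48.0 and 25.5 CPM. In Myh11/Ndufa4l2 cells few listed genes had enough UMIs, and counts higher and lower were 0 and 1 of 3 other chains, 0 and 3 of 8 receptors, 0 and 1 of 7 enzymes, and 1 and 3 of 10 proteases and inhibitors.

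Markers of other cells and of tissue handling were read beside these values. The fibroblastic markers, all 7 detected, summed to 1219 CPM in SAH and 535 CPM in sham BECs and to 784 and 557 CPM in LECs, and 5 salivary epithelial genes to 878 and 195 CPM in BECs and 627 and 279 CPM in fibroblastic stroma. The 8 mural markers, all detected, summed to 483 CPM in SAH and 590 CPM in sham BECs, 2053 and 2541 CPM in fibroblastic stroma, and 8830 and 12822 CPM in Myh11/Ndufa4l2 cells. The 7 leukocyte markers measured stayed at or below 41.9 CPM in LECs, BECs and fibroblastic stroma of either library, with all 7 detected. Immediate early and heat shock genes linked to tissue dissociation summed to 7588 CPM in SAH and 8745 CPM in sham LECs, 8724 and 8764 CPM in BECs, and 11143 and 14324 CPM in fibroblastic stroma. The part of these in the folds was not tested. Predicted doublets, which the gates do not remove, were 15.7% of SAH and 13.03% of sham LECs, 5.80% and 4.53% of BECs, and 0.858% and 1.11% of fibroblastic cells. Without them Col4a1 and Col4a2 were 1.08-fold and 1.22-fold in LECs, Nid2 was 0.598-fold there, and Col4a2 was 2.09-fold in fibroblastic stroma.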

How the data were processed

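The authors deposited whole-number UMI counts, not normalized, of 27998 gene entries for each of the 2 libraries. Cell Ranger 5.0, STAR, Seurat 3.0.2 and the build mm10 are listed in the submitters' processing notes, without their roles, and software version 5.0.0 stands in the matrix headers. Per the labels each cDNA was tagged at its 5′ end. Whether introns were counted and the annotation release are not given in the sources used here. Deposited barcodes began at 501 UMIs in the SAH and 502 in the sham library, and empty droplets were not analysed here.

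Counts of entries with the same symbol were summed. Cells in each gate were summed per library, and levels, folds and intervals were computed with Python 3.11.15, numpy 2.4.6 and scipy 1.17.1 (exact Poisson, conditional binomial and Clopper-Pearson, 95%). A fold was left out where both libraries had 3 counts or fewer. Subsets needed at least 2 UMIs of their marker list and over 2 times those of each other list in the class. Leukocytes had Ptprc and at least 3 UMIs of Cd79a, Cd79b, Cd3e and Cd3d. They had no Prox1 or Pecam1 UMI, under 3 UMIs of Dcn and Col3a1 and under 2 of Myh11 and Ndufa4l2. Doublets were predicted with Scrublet in scanpy 1.11.5 (expected rate 0.1). Fold and interval steps were tested on simulated data. Beyond the members, genes of the 4 lists could be named where they were among the 4 highest and 4 lowest folds past the limit in a class. The genes, lists and rules were chosen with earlier results of these data known. Alternatives covered cell filters, gates, doublets, totals, weighting, thinning, subset mix and the fold limit.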

Additional observations from a re-analysis of the deposited data

Results flagged for a closer look

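For 2 members the classes differed in direction, with counting intervals on either side of 1, and the difference itself was not tested. Col18a1 was 1.197-fold in LECs of the SAH library, but 0.730-fold in BECs and 0.588-fold in Myh11/Ndufa4l2 cells. Nid1 was 1.135-fold in LECs, but 0.776-fold in fibroblastic stroma and 0.661-fold in Myh11/Ndufa4l2 cells. The values for Myh11/Ndufa4l2 cells were above 1 for both genes in the cells that met that gate alone, with intervals that spanned 1. Nid1 in fibroblastic stroma was 0.948-fold without the Pi16 subset.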

How the results depend on the processing

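The members were recomputed under 10 planned settings and 1 chosen after seeing the data (the Pi16 subset left out of fibroblastic stroma). Of 400 folds of members so obtained, 376 kept their direction and 332 stayed inside the reported counting interval. Col4a2 in fibroblastic stroma ranged from 2.03-fold to 2.35-fold, Col4a1 there from 1.55-fold to 1.72-fold, Lama5 there from 1.78-fold to 2.05-fold, Nid2 in BECs from 0.535-fold to 0.598-fold and Hspg2 in BECs from 0.645-fold to 0.687-fold. Members whose interval had been clear of 1 turned direction in Myh11/Ndufa4l2 cells, and once in LECs (Col4a1, given above). With cells of more than 1 gate left out, Col18a1 was 1.49-fold, Lamc1 1.125-fold and Nid1 1.15-fold there, and with stricter gates Col18a1 was 1.10-fold. Folds with intervals spanning 1 also turned. Lamb1 in fibroblastic stroma kept its direction in 5 of 11 settings (0.924-fold to 1.11-fold), and Col18a1 there turned once, to 1.03-fold. In Myh11/Ndufa4l2 cells Col4a1 turned to 0.899-fold with stricter gates, and Lama4 (0.780 to 1.18), Lamb1 (0.715 to 1.13) and Nid2 (0.273 to 1.62) turned as well.

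Members at least 1.5-fold lower numbered 0 in LECs, 1 in BECs and 1 in Myh11/Ndufa4l2 cells under the stricter cell filter, and 0 in Myh11/Ndufa4l2 cells with stricter gates. There Hspg2 (0.546-fold) and Nid1 (0.553-fold) were past the limit but had under 100 UMIs. Fibroblastic stroma had 0 with the looser cell filter, with mitochondrial and ribosomal genes left out of the total, with folds centred on the median gene, with each cell weighted equally, with thinning and without Pi16 cells, so the single call of Hspg2 there rests on the limit. Myh11/Ndufa4l2 cells had 2 higher and 0 lower with cells of more than 1 gate left out, where Hspg2 (0.550-fold, 15 SAH and 47 sham UMIs) was again under that minimum, 2 lower with centring, 1 higher and 1 lower with equal cell weights, and 1 higher with thinning, where the minimum was not applied, which also left 1 lower in BECs. The median log2 fold in BECs was -0.012 with equal cell weights and -0.067 with thinning, and in LECs it was 0.053 with subsets weighted equally. With a smaller fold as the limit, counts lower were 2 in LECs, 5 in BECs and 3 in fibroblastic stroma, and counts higher 1 in LECs and 2 in Myh11/Ndufa4l2 cells. Beyond this minimum, the cause was not tested. Subset weighting gave no value for Myh11/Ndufa4l2 cells, whose subsets were under 50 cells. No paired analysis was possible because each group is 1 library, and none could be left out. Counts limit Nid2 and all values in Myh11/Ndufa4l2 cells. The few leukocytes limit what is known of the background of Nid2, of Lama5 in fibroblastic stroma and of Col18a1 in BECs.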
